A study of Homo sapiens with 6 samples.

Results

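The genes described here are 115 protein-coding genes of the ubiquitin system, taken by name from a deposited table of 58735 genes, 19951 of them protein-coding. They are the 37 genes whose symbol starts with UBE2, the ubiquitin-conjugating (E2) enzymes, and the 78 genes whose symbol is TRIM followed by a digit, the tripartite motif proteins. They were taken by name and without a filter on measured values, but members and lists were chosen with earlier results of these data known. RNA came from Raji, a human B-cell line derived from a Burkitt lymphoma, here carrying a GFP and firefly luciferase reporter in every sample. One group of 3 libraries was made from cells kept with the solvent DMSO, and the other group of 3 from cells exposed overnight to 1 nM bryostatin-1, a marine natural product that engages protein kinase C at its diacylglycerol site. The temperature was 37 °C in both groups, and the medium held 10% serum. Raji is 1 cell line, and whether its replicates were grown as separate cultures is not in the labels. The p-values therefore cover the spread between these 6 libraries, which may be technical.

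Ubiquitin is passed along a chain of enzymes. An E1 enzyme activates it, an E2 enzyme carries it as a thioester, and an E3 ligase brings the loaded E2 to the substrate. The E2 largely sets the kind of chain that is built: chains through lysine 48 of ubiquitin mark proteins for the proteasome, and chains through lysine 63 serve signalling and repair. A few E2s carry a relative of ubiquitin instead, such as SUMO, NEDD8 or ISG15. TRIM proteins are mostly E3 ligases with a RING finger, B-boxes and a coiled coil, and many of them act in antiviral defence, while the PHD-bromodomain branch regulates chromatin. In lymphocytes, E2s of the anaphase-promoting complex (APC/C) are known for their part in mitosis, and several TRIMs for their induction by interferon.

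Each library held between 19405370 and 24468270 reads on genes, recovered from the deposited values, so that a count of 0 allows up to 3 reads or 0.123 to 0.155 CPM (reads scaled to a common depth), for counting error only. Levels are given as FPKM, fragments scaled by gene length and sequencing depth. Differences are log2(FPKM + 1) with bryostatin minus DMSO, a scale that understates the change of low genes, and were tested with limma on the 11071 genes whose mean over the 6 libraries reached 1 FPKM. All 8 B-cell markers examined were at 1 FPKM or more, with sums of 5618 to 6380 FPKM in DMSO and 4925 to 5714 with bryostatin. Among markers of T cells, NK cells, monocytes, epithelium, fibroblasts and erythroid cells, NKG7 and CD247 were the only ones with a mean of at least 1 FPKM. DMSO replicate 3 stood apart from DMSO replicates 1 and 2 in its cell-cycle genes, so the fit was repeated without it, which leaves 2 DMSO libraries. In that run an unadjusted p under 0.05 took 15.6% of all tested genes as higher and 10.2% as lower, beside 10.5% and 7.18% with all libraries.

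Promoter letters of UBE2S and UBE2T, both among the leading E2 genes, are shown first, because genes of late cell cycle often carry a CHR element (searched as TTTGAA or TTCGAA) near CCAAT boxes (searched as CCAAT). Both strands were searched in the 250 bases before each RefSeq start on GRCh38.p14. RefSeq promoters were matched for 28 of 37 UBE2 genes and 60 of 78 TRIM genes. UBE2S (chr19:55407789-55408038, minus strand) and UBE2T (chr1:202341981-202342186, minus strand, without the 44 bases that lie inside the gene) read 5′ to 3′ as follows, with CHR elements and CCAAT boxes of either strand in capitals.
UBE2S: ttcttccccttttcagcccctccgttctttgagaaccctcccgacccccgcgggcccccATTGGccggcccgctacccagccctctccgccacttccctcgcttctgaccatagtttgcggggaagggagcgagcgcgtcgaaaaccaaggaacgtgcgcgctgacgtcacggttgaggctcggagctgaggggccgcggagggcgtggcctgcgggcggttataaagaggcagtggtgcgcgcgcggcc
UBE2T: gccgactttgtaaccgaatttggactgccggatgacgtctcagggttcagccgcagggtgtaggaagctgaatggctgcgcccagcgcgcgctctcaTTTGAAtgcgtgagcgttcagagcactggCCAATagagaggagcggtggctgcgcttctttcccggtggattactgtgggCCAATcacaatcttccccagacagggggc
The UBE2T stretch held 1 CHR element, 153 to 148 bases upstream of the start, and 2 CCAAT boxes at 124 to 120 and 73 to 69 bases upstream. The UBE2S stretch held 1 CCAAT box, read as ATTGG at 191 to 187 bases upstream, and no match to the CHR letters. UBE2M, another leading gene, had no match to either motif in its 250 bases, and UBE2C had no matched promoter. UBE2F, with a log2 change of 0.01, held a CHR match 75 to 70 bases upstream. Its CCAAT boxes lay at 224 to 220 and 172 to 168 bases upstream. UBE2U, at 0 in all libraries, also held both motifs. A CHR match was present in 14.3% of all 35116 promoters of that length and a CCAAT match in 32.0%, with both in 5.05%. Among the 11038 promoters of tested genes these shares were 10.0%, 34.3% and 4.08%. A match is a description of letters and not a binding site.

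**Figure D1:**
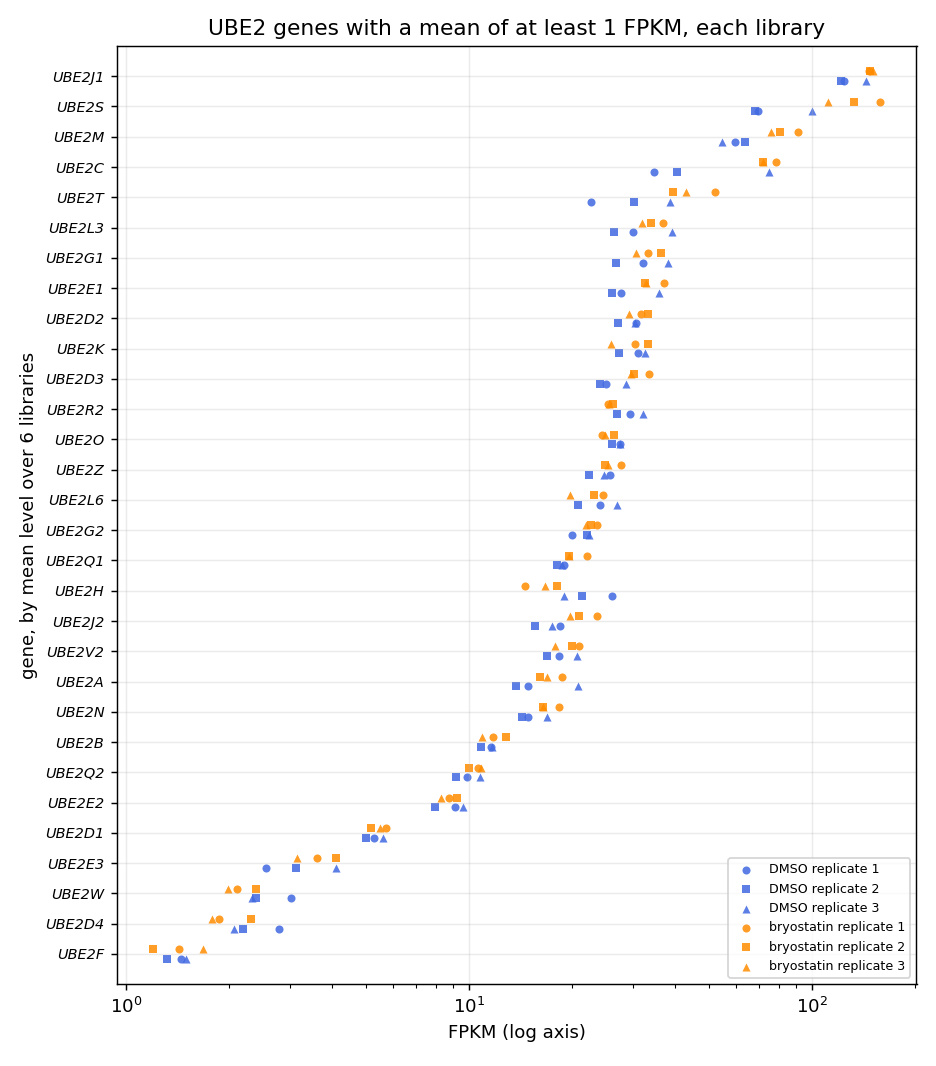
Levels of 30 of the 31 tested UBE2 genes, 1 row per gene in order of mean level, on a logarithmic FPKM axis. Each symbol is 1 library, DMSO in blue and bryostatin in orange, and for UBE2S, UBE2M and UBE2T all 3 orange symbols lie to the right of the blue ones.

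UBE2 transcripts leaned towards higher levels with bryostatin, led by UBE2S and UBE2C, the E2s of the anaphase-promoting complex, by UBE2T of the Fanconi anaemia pathway and by UBE2M, an E2 for NEDD8. The median log2 change of the 31 tested UBE2 genes was 0.08, against 0.02 over all genes tested, with a range from -0.40 to 0.76. That median was 0.13 without DMSO replicate 3 and 0.02 without DMSO replicate 2, where the medians over all genes were 0.02 and 0.02. Of the 31 genes, 23 had a change above 0 and 8 below, or 74.2% above, where 53.9% of all tested genes were above 0. The share above 0 was 83.9% without DMSO replicate 3, beside 53.6% of all genes, and 61.3% without DMSO replicate 2, beside 52.5%. None passed an adjusted p of 0.05 in limma with Benjamini-Hochberg adjustment, the smallest adjusted p being 0.216, and the share of all genes that passed was 0%. Tested UBE2 genes had a median level of 22.1 FPKM, beside 6.88 FPKM over all tested genes. With the filter raised to 5 FPKM, 59.8% of all genes were above 0, with a median of 0.05. In that run 14.2% of them were higher at an unadjusted p under 0.05. Scaling to TPM left 45.6% of all genes above 0. The part of level and scaling in the UBE2 lean was not tested.

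Taking genes with an unadjusted p under 0.05, 7 UBE2 genes were higher and 1 lower, 22.6% and 3.23% of those tested, beside 10.5% and 7.18% of all genes. Groups did not overlap for 8 UBE2 genes that were higher with bryostatin and 2 that were lower, 32.3% in all, beside 23.6% of all genes (12.9% higher and 10.7% lower). Scaling to TPM and quantile normalisation each gave 5 higher and 2 lower UBE2 genes at the unadjusted threshold. In those runs 7.66% and 8.07% of all genes were higher, and 9.93% and 9.19% lower. Leaving out a library moved the counts of all genes too. Without DMSO replicate 3, 12 UBE2 genes were higher, 38.7% of those tested, beside 15.6% of all genes in that run. Without DMSO replicate 1 or 2, 4 were higher, 12.9%, beside 5.81% and 9.11% of all genes. Without bryostatin replicate 1, 3 were higher, 9.68%, beside 5.06% of all genes. Lower genes numbered 0 without DMSO replicate 1 or bryostatin replicate 1, beside 2.93% and 3.21% of all genes, and 2 or 6.45% without DMSO replicate 2, beside 6.09%. The 95% interval stayed inside a 2-fold difference of FPKM + 1 in both directions for 28 of the 31 genes, a limit that is wider in FPKM for genes of low level. Summed over the family, the level was 782.9, 754.4 and 923.6 FPKM in DMSO replicates 1 to 3 and 1034, 967.0 and 916.4 FPKM with bryostatin, so DMSO replicate 3 lay inside the bryostatin range. In these bulk libraries fewer cells of a kind and less RNA per cell cannot be told apart.

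The anaphase-promoting complex, the ligase that ends mitosis, uses UBE2C to start chains and UBE2S to extend them. UBE2S (ENSG00000108106, chromosome 19, 55399745 to 55407777, minus strand) was at 69.7, 68.2 and 100.2 FPKM in DMSO replicates 1 to 3 and at 158.0, 132.3 and 111.5 FPKM with bryostatin. Every bryostatin library was above every DMSO library, and DMSO replicate 3 was the highest of its group. The level was 1.69-fold higher with bryostatin, a log2 change of 0.76 (95% interval 0.31 to 1.2, adjusted p = 0.216 in limma). The start of UBE2S is the one whose upstream letters are printed above.

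UBE2C (ENSG00000175063, chromosome 20, 45812576 to 45816957, plus strand) was at 34.7, 40.4 and 75.0 FPKM in DMSO and 78.3, 72.1 and 72.0 FPKM with bryostatin. The groups overlapped, since DMSO replicate 3 was higher than 2 of the bryostatin libraries, and DMSO replicates 1 and 2 were the lowest of the 6. Its log2 change was 0.64 (95% interval 0.02 to 1.26, adjusted p = 0.273 in limma). Without DMSO replicate 3 the change was 0.97 for UBE2C and 0.93 for UBE2S, with adjusted p of 0.0338 and 0.0449 in limma, and these were the only UBE2 genes to pass in any alternative run. Over all alternatives their adjusted p ran from 0.0338 to 0.637 and from 0.0449 to 0.584. The fit without DMSO replicate 3 compares only 2 DMSO libraries with bryostatin, and 2.39% of all genes passed in it. The ratio of UBE2C to UBE2S was 0.612 ± 0.127 in DMSO and 0.562 ± 0.0766 with bryostatin (SD, n = 3), a difference smaller than the spread of the libraries.

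Genes that work with these E2s split the libraries in a like way, although their lists were chosen with earlier results of these data known. With each gene centred on its 6 libraries, UBE2C and UBE2S together stood at -0.65, -0.56 and 0.16 for DMSO replicates 1 to 3 and at 0.51, 0.33 and 0.20 for bryostatin, as averages on the log2 scale. The 15 APC/C substrates stood at -0.60, -0.54 and 0.28 for DMSO and at 0.42, 0.24 and 0.21 for bryostatin. A list of 15 other proliferation genes stood at -0.60, -0.36 and 0.18 for DMSO and at 0.43, 0.15 and 0.20 for bryostatin. In each of these 3 groups DMSO replicates 1 and 2 were low and the other 4 libraries high. The part of proliferation in the UBE2C and UBE2S values was not tested.

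All 15 APC/C substrates had a change above 0, 7 of them at an unadjusted p under 0.05, with a median of 0.56. Of all tested genes 53.9% were above 0, and 10.5% were higher at that threshold, or 15.6% without DMSO replicate 3. All 15 substrates were higher at that threshold when DMSO replicate 3 was left out, with a median of 0.86. Without DMSO replicate 1, DMSO replicate 2 or bryostatin replicate 1, 1 of 15 was, 6.67%, beside 5.81%, 9.11% and 5.06% of all genes. Without bryostatin replicate 2 or 3, 3 were, 20%, beside 9.61% and 8.70%. All 15 stayed above 0 in each of these runs. The median of the proliferation list was 0.53 with all libraries and 0.75 without DMSO replicate 3, with 8 and 14 of 15 genes higher at that threshold. With another library left out, 3 to 6 of the proliferation genes were. AURKB, a mitotic kinase, had a log2 change of 0.79, TK1, thymidine kinase, 0.71 and CDCA3 0.65. Among the subunits and activators of the complex 12 of 16 tested were above 0, 4 of them at an unadjusted p under 0.05, with a median of 0.13, and 7 with a median of 0.20 without DMSO replicate 3. With another library left out, 1 to 3 of them were higher at that threshold. CDC20, the activator of early mitosis, was at 32.8, 29.1 and 62.4 FPKM in DMSO and 71.8, 68.0 and 59.5 FPKM with bryostatin. Its DMSO replicate 3 lay inside the bryostatin range, as for UBE2C, and its log2 change was 0.74, or 1.07 without that library. The RING subunit gene ANAPC11 had a change of 0.30 and ANAPC15 one of 0.34, both without overlap of the groups.

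**Figure D2:**
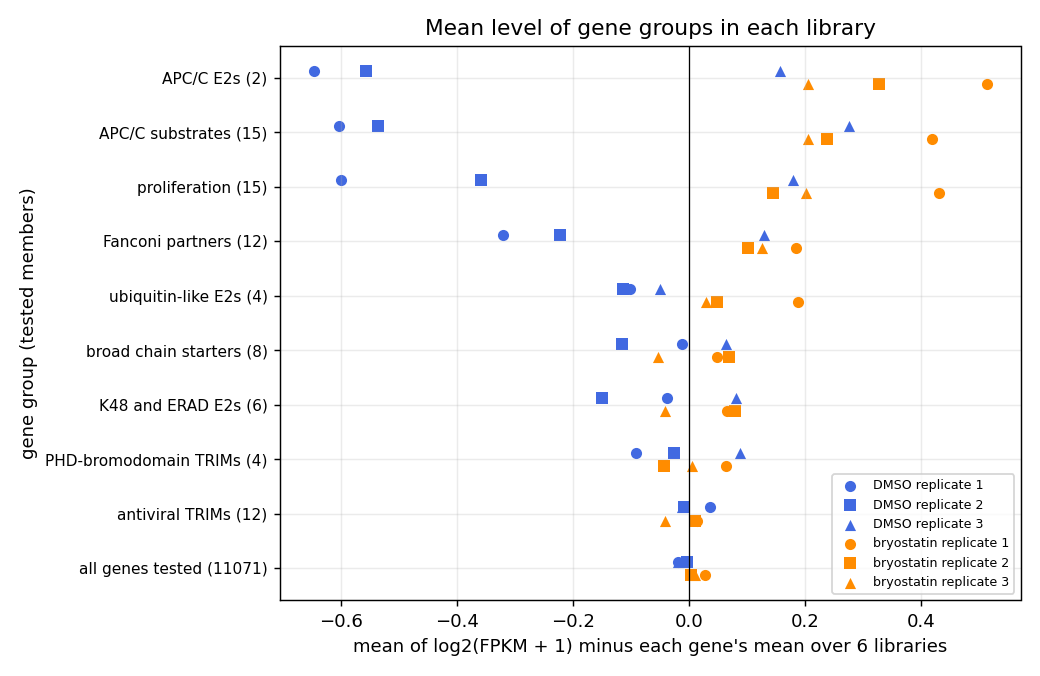
Mean level of gene groups in each library, as the mean over the tested genes of log2(FPKM + 1) minus each gene's mean over the 6 libraries, with the number of genes in brackets. DMSO replicates 1 and 2 (blue circle and square) lie far to the left for APC/C E2s, APC/C substrates, proliferation and Fanconi partners, while DMSO replicate 3 (blue triangle) lies with the bryostatin libraries.

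UBE2T, UBE2A and UBE2B act on DNA and histone-linked substrates, UBE2T by attaching 1 ubiquitin to the Fanconi proteins FANCD2 and FANCI, and UBE2A and UBE2B, the human RAD6 pair, by modifying PCNA and histone H2B. UBE2T (ENSG00000077152, chromosome 1, 202331657 to 202341980, minus strand) was at 22.7, 30.3 and 38.5 FPKM in DMSO and 52.0, 39.5 and 43.1 FPKM with bryostatin. The groups did not overlap, although DMSO replicate 3 lay next to the lowest bryostatin library. Its log2 change was 0.56 (95% interval 0.10 to 1.02, adjusted p = 0.236 in limma) and 0.74 without DMSO replicate 3. UBE2A was at 14.9, 13.7 and 20.8 FPKM in DMSO and 18.6, 16.2 and 16.8 FPKM with bryostatin, with the highest library in the DMSO group. That library was DMSO replicate 3. The change of UBE2A was 0.08 with all libraries, 0.25 without DMSO replicate 3 and -0.03 without DMSO replicate 2, and that of UBE2B was 0.05, with overlapping groups for both. UBE2A shares 18.1% of its exonic bases with the gene NKRF, and the strand setting of the counting is not given in the sources used here.

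Of 12 Fanconi genes that work with UBE2T, 11 had a change above 0 and 4 were higher at an unadjusted p under 0.05, with a median of 0.24. Those 4 are 33.3% of the list, beside 10.5% of all genes, of which 53.9% were above 0. Leaving out DMSO replicate 3 gave 7 higher at that threshold, 58.3% beside 15.6% of all genes, with a median of 0.35. It was 4 without bryostatin replicate 2, 33.3% beside 9.61% of all genes. With any of the remaining libraries left out it was 2, 16.7% beside 5.06% to 9.11% of all genes. FANCE was at 3.83, 4.58 and 6.12 FPKM in DMSO and 8.13, 7.15 and 7.26 FPKM with bryostatin, and FANCG at 3.81, 4.65 and 5.51 FPKM and 7.26, 6.24 and 7.86 FPKM. Both core-complex genes were higher in every bryostatin library, with log2 changes of 0.56 and 0.53. FANCD2, the substrate itself, had a change of 0.41 and overlapped between groups. E3 ligases of the RAD6 and RNF8 pathways, the partners of UBE2A, UBE2B and UBE2N, had a median of -0.06, with 8 of 11 below 0, where 46.1% of all tested genes were below 0. UBR4, an N-recognin, at -0.33 was the 1 with an unadjusted p under 0.05, or 9.09% of the list beside 7.18% of all genes. The median of the list was -0.03 without DMSO replicate 3. In that run 1 gene was higher and 2 lower at that threshold, 9.09% and 18.2%, beside 15.6% and 10.2% of all genes.

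E2s that carry relatives of ubiquitin had 4 tested members, 3 above 0, with a median of 0.16. UBE2M, which loads NEDD8 on the cullins that work with RBX1, is gene ENSG00000130725 on chromosome 19, 58555712 to 58558960, minus strand. It was at 59.5, 63.6 and 54.7 FPKM in DMSO and 90.9, 80.6 and 76.0 FPKM with bryostatin. Here DMSO replicate 3 was the lowest of all 6 and the groups were well apart. The log2 change was 0.47 (95% interval 0.22 to 0.71, adjusted p = 0.216 in limma), or 1.38-fold, and 0.41 without DMSO replicate 3. UBE2M and UBE2C thus differed in how DMSO replicate 3 sat relative to the other DMSO libraries.

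UBE2F, the second NEDD8 E2, which serves RNF7 and CUL5, was at 1.2 to 1.67 FPKM in all libraries, with a change of 0.01. UBE2M transcripts were therefore 42.0 ± 5.97 times as abundant per length as those of UBE2F in DMSO and 58.6 ± 11.6 times with bryostatin (SD, n = 3). UBE2F shares 16.2% of its exonic bases with the readthrough gene UBE2F-SCLY, itself a UBE2 row with at most 3 reads in any library. In the neddylation list 11 of 16 tested genes were above 0, 2 of them higher at an unadjusted p under 0.05, with a median of 0.08. Those 2 are 12.5% of the list, beside 10.5% of all genes. Groups did not overlap for 2 genes of the list that were higher and 2 that were lower, 12.5% each, beside 12.9% and 10.7% of all genes. Without DMSO replicate 3, 5 were higher at the unadjusted threshold, 31.25% beside 15.6% of all genes, with a median of 0.12. With another library left out, 1 or 2 were, 6.25% or 12.5%, beside 5.06% to 9.61% of all genes. NEDD8 had a change of 0.39, or 0.27 without DMSO replicate 3, with overlapping groups, and COPS5, the catalytic subunit of the signalosome that removes NEDD8, one of 0.29 without overlap.

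Of 15 tested sumoylation genes 9 were above 0 and 1 was higher at an unadjusted p under 0.05, SENP3, a SUMO protease, with 0.48. That is 6.67% of the list, beside 10.5% of all genes. Another 2 genes were lower without overlap, 13.3% beside 10.7% of all genes. The fit that leaves out DMSO replicate 3 gave 5 higher genes and 1 lower at the unadjusted threshold. These are 33.3% and 6.67% of the list, beside 15.6% and 10.2% of all genes. With another library left out, 1 or 2 were higher, 6.67% or 13.3%, beside 5.06% to 9.61% of all genes. UBE2L6, the E2 for ISG15, was at 24.1, 20.8 and 26.9 FPKM in DMSO and 24.5, 23.1 and 19.8 FPKM with bryostatin. Its groups overlapped, with a change of -0.08 that reached 0.00083 without DMSO replicate 3 and 0.00067 without bryostatin replicate 3. ISG15 had a change of 0.11. The 11 tested genes of the ISG15 system and interferon response were 6 above and 5 below 0, with none at an unadjusted p under 0.05 and a median of 0.01.

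The E2s of lysine 48 chains and of degradation from the endoplasmic reticulum (ERAD) had 6 tested members, 4 above 0, with a median of 0.07. UBE2J1, a tail-anchored E2 of ERAD and the most abundant UBE2 transcript, was at 124.3, 121.4 and 144.1 FPKM in DMSO and 146.7, 147.4 and 150.9 FPKM with bryostatin. The groups did not overlap, but DMSO replicate 3 lay close to the bryostatin libraries, and the log2 change was 0.19 (95% interval -0.03 to 0.42, adjusted p = 0.328 in limma). UBE2J2, its paralog, was at 18.4, 15.5 and 17.4 FPKM in DMSO and 23.7, 21.0 and 19.7 FPKM with bryostatin. Every bryostatin library was the higher, with a change of 0.31 (95% interval 0.06 to 0.55, adjusted p = 0.232 in limma). UBE2J1 was 7.60 ± 0.781 times as abundant as UBE2J2 in DMSO and 6.96 ± 0.734 times with bryostatin (SD, n = 3). Their ERAD ligases and adaptors did not lean: 7 of 12 tested were above 0 with a median of 0.02. None had an unadjusted p under 0.05, and SYVN1, the main ERAD ligase, had 0.03.

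UBE2R2, an E2 of the SCF ligases, was at 29.4, 27.1 and 32.1 FPKM in DMSO and 25.5, 26.4 and 25.5 FPKM with bryostatin. Its groups did not overlap, and the change was -0.19 with an unadjusted p of 0.0741. It was named after its values were seen, since its p missed the limit of the naming rule, and the same holds for UBE2Q1 (0.13, higher without overlap). CDC34, the paralog of UBE2R2 outside the UBE2 names, had a change of 0.26 in the other direction, also without overlap. Of 7 tested E2-fold genes under other names 3 were above 0, and BIRC6, a very large E2 and E3 in 1 protein, was at 8.18, 8.61 and 8.13 FPKM in DMSO and 6.30, 6.17 and 6.43 FPKM with bryostatin. BIRC6 was low in all bryostatin libraries, with a change of -0.35.

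Chain starters of broad use, the UBE2D and UBE2E subfamilies and UBE2W, had 8 tested members, 5 above 0, with a median of 0.06. UBE2D3 was at 25.1, 24.1 and 28.7 FPKM in DMSO and 33.5, 30.3 and 29.7 FPKM with bryostatin. It did not overlap between the groups, with a change of 0.26 (95% interval 0.03 to 0.49, adjusted p = 0.252 in limma). The other 7 genes overlapped, with changes from -0.18 for UBE2W to 0.20 for UBE2E1. Levels had a clear order within each subfamily. UBE2D2 was the highest UBE2D gene at 30.4 FPKM on average and UBE2D4 the lowest at 2.17 FPKM. UBE2D2 and UBE2D3 were next to each other in that order, at a ratio of UBE2D3 to UBE2D2 of 0.880 ± 0.0614 in DMSO and 0.995 ± 0.0747 with bryostatin (SD, n = 3). UBE2E1, at 32.0 FPKM on average, stood above UBE2E2 and UBE2E3, the last at 3.45 FPKM.

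UBE2N, the E2 that builds lysine 63 chains with an inactive partner, was at 14.9, 14.3 and 16.9 FPKM in DMSO and 18.3, 16.4 and 16.4 FPKM with bryostatin. The groups overlapped and the change was 0.14. UBE2N shares 39.5% of its exonic bases with NUDT4 on the opposite strand, a gene at 3.96 FPKM. Of the partners, UBE2V2 had a change of 0.07, and UBE2V1 was below the filter with 101, 107 and 70 reads in DMSO and 55, 55 and 79 reads with bryostatin. UBE2V1 shares 42.9% of its exonic bases with the readthrough gene TMEM189-UBE2V1, listed at 0, and has 15 named pseudogene rows, of which UBE2V1P2 was at 6.35 FPKM, so its value is uncertain. Of 12 ligases of lysine 63 and linear chains 4 were above 0, with a median of -0.04. TRAF2 at 0.31 and TRAF6 at -0.26 were those with an unadjusted p under 0.05, 16.7% of the list beside 17.6% of all genes.

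UBE2H, an E2 of the CTLH ligase, was the 1 UBE2 gene that was lower at an unadjusted p under 0.05. It was at 26.2, 21.4 and 18.9 FPKM in DMSO and 14.6, 18.1 and 16.6 FPKM with bryostatin. The groups did not overlap, with DMSO replicate 3 nearest to the bryostatin libraries. Its log2 change was -0.40 (95% interval -0.72 to -0.08, adjusted p = 0.232 in limma), or 1.32-fold lower, and -0.50 without DMSO replicate 3. UBE2L3, an E2 for HECT and RBR ligases, was at 26.4 to 39.1 FPKM in DMSO and 32.0 to 36.8 FPKM with bryostatin, with overlapping groups. Its change was 0.12 with all libraries, 0.27 without DMSO replicate 3 and -0.0021 without DMSO replicate 2.

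Upstream of the E2s, 7 of 9 E1 genes were above 0, with none at an unadjusted p under 0.05 and a median of 0.09. Without DMSO replicate 3, 3 E1 genes were higher at that threshold, 33.3% beside 15.6% of all genes. With another library left out, 0 were, or 1 without bryostatin replicate 3, 11.1% beside 8.70% of all genes. UBA1, the main E1 of ubiquitin, was at 81.3, 87.3 and 98.9 FPKM in DMSO and 108.5, 90.5 and 100.3 FPKM with bryostatin, with overlapping groups. All 13 genes for ubiquitin and its relatives were above 0, with a median of 0.15, and 2 had an unadjusted p under 0.05. Those 2 are 15.4% of the list, beside 17.6% of all genes, and the groups overlapped for all 13. Of the 13, 11 were above 0 without DMSO replicate 3. UBB, a polyubiquitin gene, was at 49.6, 49.2 and 65.5 FPKM in DMSO and 88.9, 79.6 and 60.0 FPKM with bryostatin. DMSO replicate 3 was above bryostatin replicate 3 for UBB, and the change was 0.46, or 0.60 without DMSO replicate 3. None of these pathway genes passed an adjusted p of 0.05 in limma.

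**Figure D3:**
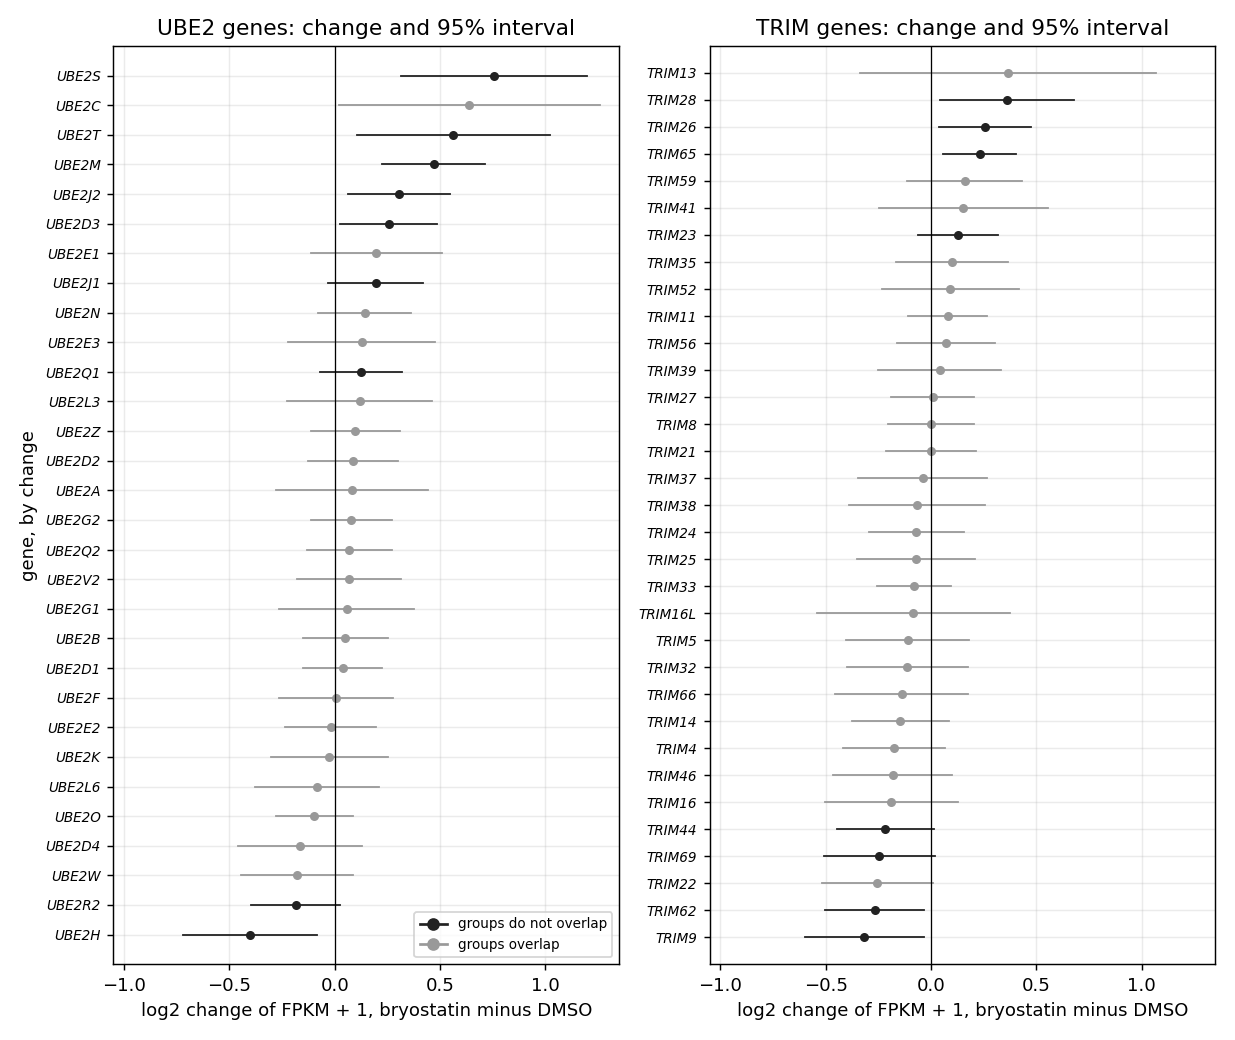
Log2 change of FPKM + 1, bryostatin minus DMSO, with its 95% interval for 30 of the 31 UBE2 genes (left) and the 33 TRIM genes (right) tested, in order of change. Black marks genes whose groups do not overlap; UBE2 changes run from -0.40 for UBE2H to 0.76 for UBE2S and TRIM changes from -0.32 for TRIM9 to 0.36 for TRIM13.

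TRIM genes showed smaller differences and no common direction, with TRIM28 as the most abundant member and the 1 with the largest difference among those whose groups did not overlap. Of 78 TRIM genes 33 were tested, 14 of them above 0 and 19 below, or 42.4% above, beside 53.9% of all genes. The median log2 change was -0.07, with a range from -0.32 to 0.36. It was 0.0011 with a filter of 5 FPKM, where 15 TRIM genes remained, -0.12 with TPM, and between -0.055 and -0.0018 with a library left out. The value nearest to 0 was without DMSO replicate 1, and it was -0.02 without DMSO replicate 3 or bryostatin replicate 3. No TRIM gene passed in limma, with 0.227 as the smallest adjusted p.

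At an unadjusted p under 0.05, 3 TRIM genes were higher and 2 lower with bryostatin, 15.2% together, beside 17.6% of all genes. The groups did not overlap for 4 higher and 4 lower TRIM genes, 24.2% together, beside 23.6% of all genes. Scaling to TPM gave 2 higher and 5 lower at the unadjusted threshold, beside 7.66% and 9.93% of all genes. Median-of-ratios scaling gave 3 and 5, beside 9.22% and 8.35%, and quantile normalisation 0 and 2, beside 8.07% and 9.19%. The number of higher TRIM genes was 0 without DMSO replicate 1, where 5.81% of all genes were higher, and 1 or 3.03% without bryostatin replicate 1, beside 5.06%. The number of lower ones was 0 without DMSO replicate 1 or bryostatin replicate 3, beside 2.93% and 4.68% of all genes. It was 1 or 3.03% without DMSO replicate 3 or bryostatin replicate 1, beside 10.2% and 3.21%, and 4 or 12.1% without DMSO replicate 2, beside 6.09%. The 95% interval stayed inside a 2-fold difference of FPKM + 1 for 32 of 33 genes. In FPKM alone that limit is wider for genes of low level, so a 2-fold difference is not excluded for them.

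TRIM28, also called KAP1, is the corepressor that KRAB zinc-finger proteins bring to DNA. It is gene ENSG00000130726 on chromosome 19, 58544091 to 58550722, plus strand. It was at 95.3, 97.3 and 127.2 FPKM in DMSO and 148.9, 132.4 and 127.5 FPKM with bryostatin. DMSO replicate 3 lay just below the lowest bryostatin library, so the groups touched without overlap. The log2 change was 0.36 (95% interval 0.04 to 0.68, adjusted p = 0.247 in limma), or 1.28-fold, and 0.49 without DMSO replicate 3 (adjusted p = 0.0557 in limma, and 0.0557 to 0.611 over all alternatives). TRIM28 made up 31.1%, 32.2% and 37.5% of the summed TRIM level in DMSO and 41.8%, 38.7% and 38.5% with bryostatin, 36.9% over all libraries.

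The other PHD-bromodomain genes of the same branch, TRIM24, TRIM33 and TRIM66, had changes of -0.07, -0.08 and -0.14 with overlapping groups. TRIM24 and TRIM33 are nuclear receptor and SMAD cofactors. TRIM24 was at 4.73, 4.35 and 5.53 FPKM in DMSO and 4.60, 4.40 and 4.74 FPKM with bryostatin, and its change was 0.0092 without DMSO replicate 3. TRIM28 was 21.8 ± 1.5 times as abundant as TRIM24 in DMSO and 29.8 ± 2.75 times with bryostatin, and 10.4 ± 1.25 and 14.3 ± 1.33 times as abundant as TRIM33 (SD, n = 3). Both ratios were higher in every bryostatin library than in any DMSO library, and an exact permutation test of 3 against 3 cannot go below a two-sided p of 0.1.

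Partners of TRIM28 in heterochromatin were mixed: 6 of 11 were above 0 with a median of 0.05. At an unadjusted p under 0.05, 2 were higher and 1 was lower, 18.2% and 9.09%, beside 10.5% and 7.18% of all genes. This median was -0.0087 without DMSO replicate 3. In that run 2 were higher and 0 lower at that threshold, beside 15.6% and 10.2% of all genes. CBX3, an HP1 protein, was at 43.6, 47.9 and 61.4 FPKM in DMSO and 75.9, 69.7 and 61.4 FPKM with bryostatin. As for TRIM28, its DMSO replicate 3 lay next to the lowest bryostatin library, and the change was 0.44, or 0.58 without it. CBX1, another HP1 protein, had 0.25, and ATF7IP, the partner of the methyltransferase SETDB1, had -0.32, both without overlap.

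TRIM28 and UBE2M are neighbours on chromosome 19, with 4989 bases between them. CHMP2A, an ESCRT-III gene, lies in that gap on the strand of UBE2M. CHMP2A was at 37.4, 39.2 and 27.7 FPKM in DMSO and 37.2, 33.2 and 33.9 FPKM with bryostatin, with overlapping groups and a change of 0.01. Of 6 tested genes within 25000 bases of the pair, the pair included, 4 were above 0, where 53.9% of all tested genes were. The 2 at an unadjusted p under 0.05 were TRIM28 and UBE2M, the genes around which the window was placed. Both were known to have such a p, so that count was fixed in advance and says nothing about the region. ZBTB45, on the far side of TRIM28, had -0.31. The gene between TRIM28 and UBE2M, CHMP2A, did not share their higher level in each bryostatin library.

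**Figure D4:**
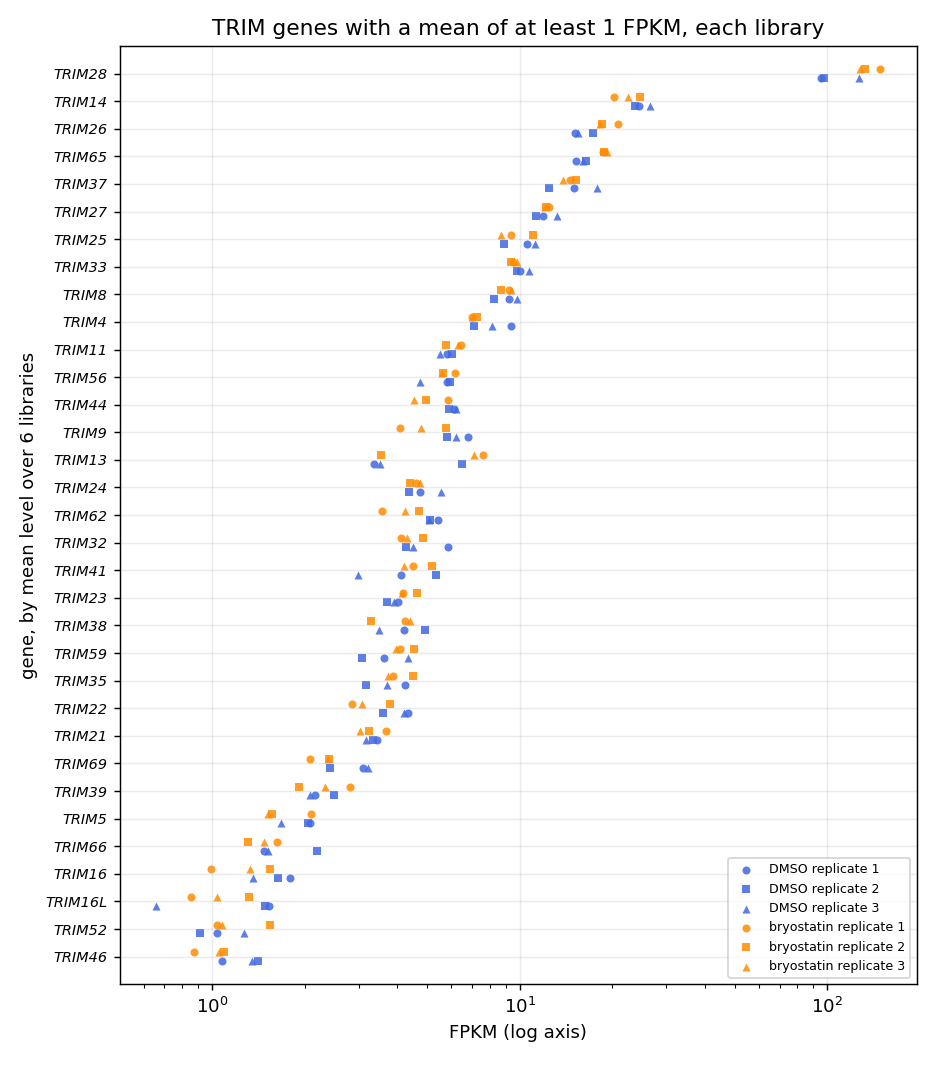
Levels of the 33 tested TRIM genes, 1 row per gene in order of mean level, on a logarithmic FPKM axis. Each symbol is 1 library, DMSO in blue and bryostatin in orange; TRIM28 lies far to the right of all others, and for most genes the colours overlap.

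Antiviral and innate-signalling TRIMs had 12 tested members of 14, 5 above 0 and 7 below, with a median of -0.03. Interferon-induced genes often carry an interferon-stimulated response element, searched here as GAAA, any 2 bases and GAAA again on both strands and present in 3.02% of all promoters and 2.45% of those of tested genes. Among the more abundant of these TRIMs, TRIM14 (chr9:98119223-98119273, minus strand) held 1 such element and TRIM26 (chr6:30213560-30213625, minus strand) 2 that overlap each other. Their stretches from RefSeq on GRCh38.p14 are given 5′ to 3′ to show those letters in capitals, here as the reverse complement.
TRIM14: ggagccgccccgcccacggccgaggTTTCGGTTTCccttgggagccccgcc
TRIM26: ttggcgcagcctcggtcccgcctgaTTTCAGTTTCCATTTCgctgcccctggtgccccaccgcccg
TRIM14, an adaptor of antiviral signalling without a RING finger, was at 24.5, 23.7 and 26.6 FPKM in DMSO and 20.3, 24.6 and 22.6 FPKM with bryostatin. Its groups overlapped, with a change of -0.15. TRIM26, a ligase of the interferon pathway in the MHC region of chromosome 6, was at 15.1, 17.3 and 15.5 FPKM in DMSO and 20.9, 18.6 and 18.3 FPKM with bryostatin. All its bryostatin libraries were above the DMSO libraries, with a change of 0.25 (95% interval 0.04 to 0.47, adjusted p = 0.244 in limma).

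TRIM65, a ligase for the RNA sensor MDA5, was at 15.3, 16.5 and 16.1 FPKM in DMSO and 18.7, 18.8 and 19.2 FPKM with bryostatin. Libraries within each group lay close together and the groups did not overlap, with a change of 0.23 (95% interval 0.06 to 0.41, adjusted p = 0.227 in limma). DMSO replicate 3 of TRIM65 sat with its own group, unlike that of TRIM28. TRIM23 was also higher without overlap, at 0.13 and an unadjusted p of 0.154, named after its values were seen.

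Well-known restriction factors and sensors overlapped between the groups. TRIM25, the ligase of the RNA sensor RIG-I, was at 8.91 to 11.2 FPKM in DMSO and 8.67 to 11.02 FPKM with bryostatin, with a change of -0.07. TRIM21, the cytosolic antibody receptor, was at 3.16 to 3.45 and 3.03 to 3.69 FPKM, with a change of -0.00094, and TRIM5, which binds retroviral capsids, at 1.67 to 2.08 and 1.51 to 2.10 FPKM, with -0.11. TRIM22, an interferon-induced gene, was at 4.33, 3.59 and 4.21 FPKM in DMSO and 2.85, 3.78 and 3.08 FPKM with bryostatin. Its bryostatin replicate 2 lay above the lowest DMSO library, and the change was -0.25 (95% interval -0.52 to 0.01). TRIM27 and TRIM38 overlapped, with 0.01 and -0.07. The sign of TRIM27 turned with TPM (-0.038), median-of-ratios scaling (-0.012), quantile normalisation (-0.047) and voom (-0.0077), and that of TRIM21 with quantile normalisation (0.01).

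Among TRIMs of growth, centrosome and p53 control 6 of 7 tested genes were above 0, with a median of 0.08 and none at an unadjusted p under 0.05. TRIM37, which limits centrosome assembly, was at 15.1, 12.4 and 17.9 FPKM in DMSO and 14.6, 15.3 and 13.8 FPKM with bryostatin, with a change of -0.04 that was 0.08 without DMSO replicate 3. TRIM59 had 0.16, with overlapping groups, or 0.26 without DMSO replicate 3 and 0.06 without DMSO replicate 2. It shares 34.3% of its exonic bases with other genes, the most with SMC4 on the opposite strand. SMC4 was at 17.8, 19.2 and 32.8 FPKM in DMSO and 30.0, 28.3 and 28.3 FPKM with bryostatin, with DMSO replicate 3 the highest of the 6, and its part in the TRIM59 value was not tested. TRIM13, a ligase of the endoplasmic reticulum, had the largest change of the family at 0.36, but its 95% interval ran from -0.34 to 1.07. It was at 3.36, 6.49 and 3.52 FPKM in DMSO and 7.57, 3.53 and 7.11 FPKM with bryostatin. In each group replicate 2 stood with the other group, and TRIM13 is named for that after its values were seen.

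The TRIM genes lower at an unadjusted p under 0.05 were TRIM9 and TRIM62. TRIM9, a ligase with a COS box best known from neurons, was at 6.81, 5.79 and 6.21 FPKM in DMSO and 4.09, 5.74 and 4.77 FPKM with bryostatin. The groups were separated only narrowly, by 5.79 against 5.74 FPKM, with a change of -0.32 (95% interval -0.60 to -0.03, adjusted p = 0.251 in limma). TRIM62 was at 5.41, 5.12 and 5.09 FPKM in DMSO and 3.57, 4.72 and 4.25 FPKM with bryostatin. All bryostatin libraries of TRIM62 were low, with a change of -0.27 (95% interval -0.50 to -0.03, adjusted p = 0.248 in limma). TRIM44 at -0.22 and TRIM69 at -0.24 were also lower without overlap, at unadjusted p of 0.0609 and 0.0646, and are named after their values were seen. Of 11 TRIM family genes under other names 2 were tested, PML with -0.15 among them.

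A large part of the TRIM family had no reads. In all libraries 27 of 78 TRIM genes were at 0, against 3 of 37 UBE2 genes, while 18 more TRIM genes had some reads but missed the filter. Of the 27, 15 lie on chromosome 11 and 4 on chromosome 6. Chromosome 11 holds 23 TRIM genes, of which 5 were tested. Of the 27 genes at 0, 22 share no exonic base with another gene, and 4 share at least 25% of theirs on the same strand. Those 4 are TRIM6, TRIM34 and the readthrough genes TRIM6-TRIM34 and TRIM39-RPP21. Several TRIM genes on chromosome 11, such as those named TRIM49, TRIM51 and TRIM64, are near-identical copies of each other, so reads of these could not be assigned with certainty and a value of 0 is not evidence that they are silent. The same caution holds for TRIM16 and TRIM16L and for TRIM73 and TRIM74.

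Members below the filter with over 50 reads in any library were UBE2V1, TRIM3 and TRIM55. TRIM3, an NHL-repeat ligase, had 141, 153 and 121 reads in DMSO and 111, 109 and 145 reads with bryostatin. TRIM55, one of 4 muscle TRIMs of which none was tested, had 87, 28 and 39 reads in DMSO and 5, 21 and 21 reads with bryostatin. In FPKM its groups did not overlap, at 0.731 ± 0.375 in DMSO and 0.247 ± 0.141 with bryostatin (SD, n = 3), and it was not tested. TRIM32, the 1 NHL-repeat gene tested, had -0.11.

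The position of DMSO replicate 3 was counted in each family. DMSO replicate 3 was nearer to the bryostatin mean than to that of DMSO replicates 1 and 2 in 24 of 31 tested UBE2 genes. For TRIM genes it was so in 16 of 33. It lay inside the bryostatin range in 14 UBE2 and 9 TRIM genes. These counts were not taken over all tested genes, so whether either family differs from them is not known. With each gene centred on its 6 libraries, the average of the tested UBE2 genes stood at -0.09, -0.16 and 0.06 for DMSO replicates 1 to 3 and at 0.12, 0.07 and -0.01 for bryostatin on the log2 scale. The tested TRIM genes stood at 0.03, 0.00 and 0.00 for DMSO and at -0.01, 0.01 and -0.03 for bryostatin. All tested genes stood at -0.02, -0.004 and -0.02 for DMSO and at 0.03, 0.003 and 0.01 for bryostatin. Without DMSO replicate 3 the change of 10 UBE2 and 12 TRIM genes moved by over 1.5 times and that of 3 and 4 more changed sign. The value was higher than with all libraries in 27 of 31 UBE2 genes and 17 of 33 TRIM genes. These counts follow from where DMSO replicate 3 lay among the DMSO libraries, and they were not taken over all tested genes. Among E2s described above the change without DMSO replicate 3 was 0.33 for UBE2E1, 0.26 for UBE2E3, 0.14 for UBE2V2 and 0.03 for UBE2F. Among TRIMs it was -0.0088 for TRIM25, -0.05 for TRIM33, -0.17 for TRIM38, -0.18 for TRIM5, -0.03 for TRIM21 and 0.07 for TRIM27. Among partners it was 0.20 for TRAF2, 0.07 for ISG15, 0.09 for SYVN1 and -0.08 for PML. The cause of the difference of that library was not tested.

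Both families were dominated by a few transcripts. UBE2J1 and UBE2S made up 15.5% and 11.9% of the summed UBE2 level over all libraries, and the 5 most abundant genes 46.4%. In the TRIM family the 5 most abundant genes, TRIM28, TRIM14, TRIM26, TRIM65 and TRIM37, made up 59.2%. The median level of a tested gene was 22.1 FPKM in the UBE2 family and 4.69 FPKM in the TRIM family, beside 6.88 FPKM over all tested genes.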

How the data were processed

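Per the labels' protocols, a column kit yielded the RNA, and polyadenylated RNA was sequenced. The deposited table gives FPKM and the length of each gene in bases. According to the submitters' processing notes the build was hg38 and the tools were HISAT2 2.0.5, DESeq2 1.20.0, featureCounts 1.5.0-p3 and CASAVA, without a stated role. Annotation release, strand setting and filters: not given in the sources used here. Gene lengths and coordinates equalled those of GENCODE release 29 for all 58735 genes. Multiplying FPKM by length gave values that are whole multiples of a unit fixed for each library (100% of them to 0.01 reads), which returned the reads per gene and the depth, 19405370 to 24468270.

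FPKM is not a count, so log2(FPKM + 1) was tested with limma 3.58.1 (R 4.3.3), by its moderated test with an intensity trend, over the 11071 genes whose mean reached 1 FPKM. Benjamini-Hochberg adjustment over all of them used a threshold of 0.05. The fit was tested on simulated data. Groups follow the treatment label, with 3 libraries each.

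The members and lists were chosen with earlier results of these data known. Named in each family were members with an unadjusted p under 0.05 and groups that did not overlap, the 5 most abundant, 22 genes set by name, up to 3 members of each of 15 pathway lists (in the table were 12 of 13 ERAD genes, 11 of 12 TRIM28 partners and all symbols of the others), and members below the filter with over 50 reads; exceptions are marked. One member that the rule takes is counted but not reported here. Exonic overlap came from GENCODE 29, and motifs were searched in RefSeq promoters of 250 bases. Alternatives were pseudocounts of 0.1 and 0.5, a filter of 5 FPKM or none, scaling by TPM, by median of ratios or by quantiles, no trend, voom on recovered reads, a replicate block, a test of protein-coding genes alone, and leaving out each library in turn.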

Additional observations from a re-analysis of the deposited data

How the results depend on the processing

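Over all genes, 1 gene passed the adjusted threshold with a pseudocount of 0.1 and 1 with TPM, and 0 to 266 when a library was left out, 266 of them without DMSO replicate 3. At an unadjusted p under 0.05 the number of all genes was 1191 with the replicate number as a block and 917 to 2868 when a library was left out. For UBE2 members leaving out a library gave 0 to 2 genes past the adjusted threshold, and 3 to 12 higher and 0 to 2 lower at the unadjusted one. Lower UBE2 members numbered 2 with no filter, TPM, median-of-ratios scaling, quantile normalisation or voom, and 0 with the replicate block. Higher TRIM members numbered 0 with quantile normalisation, 0 with the replicate block and 0 to 3 with a library left out. Lower TRIM members numbered 1 with a filter of 5 FPKM, 5 with TPM, median-of-ratios scaling or voom, 0 with the replicate block, 4 with protein-coding genes only and 0 to 4 with a library left out. Of all genes tested 8.07% were higher with quantile normalisation, 7.08% with the replicate block and 5.06% to 15.6% with a library left out. Lower were 4.39% with no filter, 6.63% with a filter of 5 FPKM, 9.93% with TPM and 8.35% with median-of-ratios scaling. The share lower was 9.19% with quantile normalisation, 9.29% with voom, 3.68% with the replicate block and 8.14% with protein-coding genes only. It was 2.93% to 10.2% with a library left out. The TRIM median was -0.023 with no filter, 0.0011 with a filter of 5 FPKM, -0.12 with TPM and -0.055 to -0.0018 with a library left out. Fewer genes were tested under the stricter filter and fewer samples entered when a library was left out; for the other settings the cause was not tested.

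Of 312 changes of 29 named members under settings that keep all libraries, 307 kept direction and call and 5 changed sign: TRIM27 with TPM (-0.038), median-of-ratios scaling (-0.012), quantile normalisation (-0.047) and voom (-0.0077), and TRIM21 with quantile normalisation (0.012). Of 174 with a library left out, 15 changed sign, in 8 genes, with ranges of -0.0021 to 0.27 for UBE2L3, -0.18 to 0.00083 for UBE2L6, -0.031 to 0.25 for UBE2A, -0.16 to 0.082 for TRIM37, -0.038 to 0.067 for TRIM27, -0.13 to 0.0092 for TRIM24, -0.17 to 0.037 for TRIM38 and -0.062 to 0.048 for TRIM21. With each gene centred on the mean of its own group, deviations of same-numbered libraries correlated at -0.32 to -0.11. In these deviations, which are not the levels themselves, 0 libraries correlated best with their own number. With 3 libraries in each group these correlations cannot show whether same-numbered libraries shared a culture or batch, and the labels do not say. Members with few reads or shared exons are limited by depth and by how reads were assigned.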
